A study of Mus musculus with 20 samples.

Results

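The comparison described here set 5 Fkbp5 knockout hippocampi against 5 wild-type hippocampi after saline, 10 of the 20 libraries of the study. Its members are the libraries of both genotypes that the labels assign to saline. All animals were male mice of 12 weeks with the strain label C57BL/6J, killed on day 7 after 1 intraperitoneal injection. The other 10 libraries came from the same genotypes after LPS (lipopolysaccharide from the outer membrane of bacteria, 3 mg/kg), and here they give a second reading of the genotype difference and share in the error estimates of the fit. The labels give neither the allele, the way it was made and its line of origin nor whether the wild-type animals were littermates, so the deletion and the genetic background of the 2 lines cannot be told apart. The labels also do not state that each replicate was a separate animal, and the p-values measure the spread between these libraries.

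FKBP5 is an immunophilin that sits on HSP90 and lowers the affinity of the glucocorticoid receptor for its hormone. The receptor in turn induces FKBP5, which closes a short feedback loop. The hippocampus is rich in both corticosteroid receptors and takes part in the control of the stress axis. FKBP4, a close relative, has the opposite effect on the receptor.

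Total counts per saline library were 16746944 to 25840538. Levels are given as CPM (counts scaled to a common library size with TMM factors), and differences as log2 of knockout over wild-type from 1 edgeR quasi-likelihood fit of all 20 libraries with a term for the library set. A gene is called where its Benjamini-Hochberg adjusted p over the 16419 genes tested was under 0.05. The libraries formed 2 sets, replicates 1 and 2 and replicates 3 to 5, each present in every group in the same number. Mitochondrially encoded genes took 4.89 to 5.68% of counts in the first saline set, with overlapping genotypes. In the second set they took 9.82 to 11.4% in wild-type and 8.41 to 9.6% in knockout, without overlap. Hippocampal markers were present in both genotypes, among them Prox1 of granule cells at 129 ± 28.2 CPM (SD, n = 5) in wild-type and 143 ± 15.6 in knockout, and Wfs1 of CA1 at 175 ± 59.6 and 191 ± 39.0.

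Fkbp5 (ENSMUSG00000024222, mm10 chromosome 17, 28399094 to 28517527) stood at 58.4, 71.9, 59.9, 56.7 and 68.5 CPM in wild-type replicates 1 to 5 and at 35.0, 26.8, 27.9, 27.6 and 35.99 in the knockout. The genotypes did not overlap, and the knockout kept 48.6% of the wild-type count. The log2 difference was -1.04 ± 0.10 (SE, edgeR adjusted p = 2.82e-06), with -1.07 in the first library set and -1.02 in the second. Counts per gene do not show which exons the remaining reads came from.

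No other member of the FKBP family was called. Of 14 tested immunophilins only Fkbp5 passed the test, against 0.286% of all genes tested (47 of 16419). Fkbp4 stood at 106 ± 14.0 CPM in wild-type and 106 ± 6.77 in knockout (SD, n = 5; log2 difference 0.01 ± 0.08). None of the 21 HSP90 and co-chaperone genes was called. Over all 5 replicates 16 lay above 0, with a list median of 0.20 in the first library set and -0.05 in the second. Hsp90aa1, the inducible cytosolic HSP90, had 711 ± 180 and 886 ± 166 CPM, and its constitutive partner Hsp90ab1 1561 ± 286 and 1817 ± 98.4, with overlapping groups in both (edgeR adjusted p = 0.8 and 0.804).

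Over all 5 replicates neither corticosteroid receptor and none of the tested receptor target genes passed the test. Nr3c1, the glucocorticoid receptor, stood at 80.6 ± 14.6 CPM in wild-type and 86.1 ± 7.08 in knockout (SD, n = 5), and Nr3c2, the mineralocorticoid receptor, at 179 ± 27.1 and 206 ± 16.5. Of 22 tested glucocorticoid receptor targets 0 were called by edgeR (0.286% of all genes tested were), and 3 had an unadjusted p under 0.05, as had 1082 of the 16419. The list had 14 genes above 0 and a median log2 difference of 0.05, beside -0.01 over all genes. Per1 (log2 difference -0.01 ± 0.08), Tsc22d3 (0.01 ± 0.10) and Sgk1 (-0.07 ± 0.13) lay at 0 within their errors. The smallest p of the list belonged to Cdkn1a, a cell cycle inhibitor named after its values were seen, at 7.99 ± 1.56 CPM in wild-type and 5.56 ± 0.408 in knockout (edgeR adjusted p = 0.253). In replicates 3 to 5 alone 2 of the 22 targets were called higher and 1 lower, beside 2.13% and 1.1% of all genes tested there. These were Zbtb16 (0.45), Plin4 (2.52) and Cdkn1a (-0.60), with 0.08, 0.70 and -0.35 in replicates 1 and 2. Of 14 genes on the receptor list, Ncoa1 was called higher there (0.35). Zbtb16, Plin4 and Ncoa1 are named after their values were seen.

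**Figure D1:**
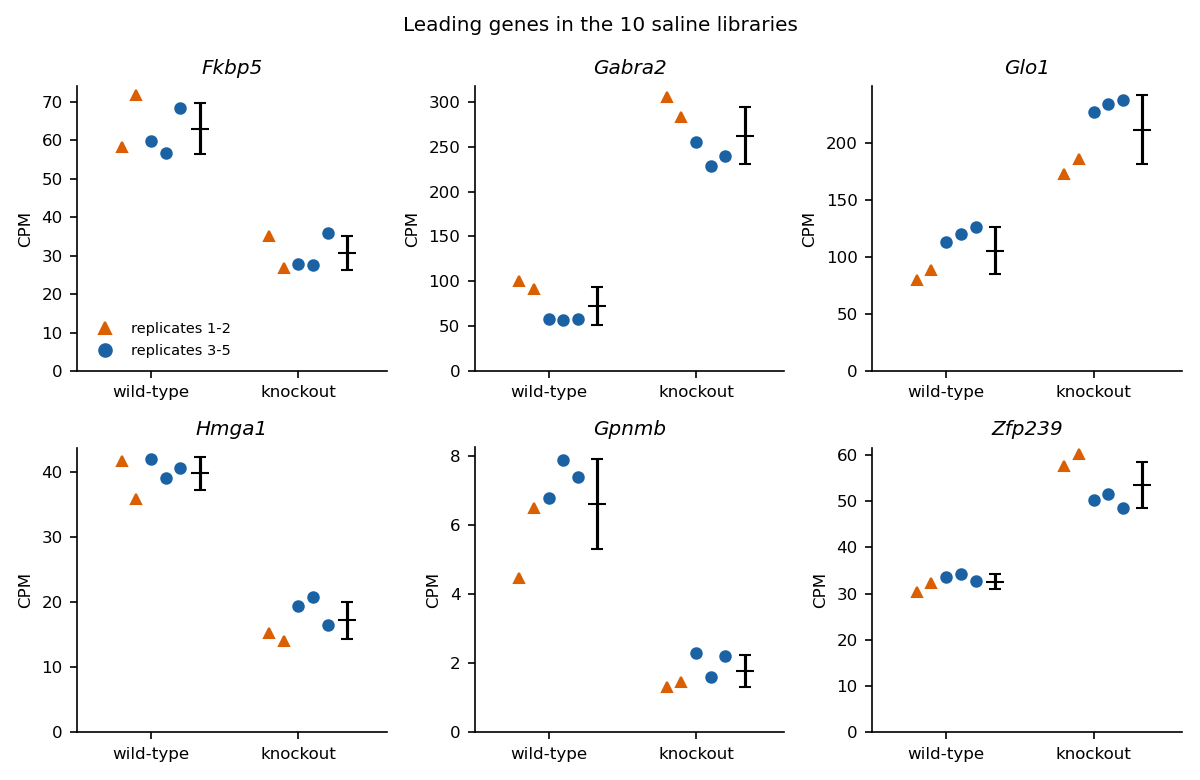
CPM of 6 named genes in the 5 wild-type and 5 knockout saline libraries, with the mean and SD of each group beside the points and the library set shown by the marker. In all 6 panels the genotypes do not overlap, and the replicates 1 and 2 differ from 3 to 5 in level for Gabra2 and Glo1 in both genotypes alike.

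Across the genome 47 genes were called, 33 higher in the knockout (0.201% of the genes tested) and 14 lower (0.0853%). Their absolute log2 differences had a median of 1.30, and 29 of them differed at least 2-fold. In 37 of the 47 the 5 knockout libraries did not overlap the 5 wild-type libraries, beside 0.737% of all genes tested. The 47 held 33 protein-coding genes and 6 processed pseudogenes; such pseudogenes made up 12.8% of the calls and 1.38% of the genes tested. The count was 88 with DESeq2, 28 without the library set term, 335 without a filter on low counts and 27 without knockout replicates 4 and 5. The 10 saline libraries fitted alone gave 40 calls, 36 of them among the 47.

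Some calls depended on single libraries. Leaving out each of the 20 libraries in turn kept 26 of the 47 genes in every fit. The other 21 lost their call in at least 1 fit, with edgeR adjusted p-values of at most 0.157. They comprise Umodl1, Tlr6, Glt1d1, Lrig1, Nat8f5, Klrg1, Smo, Gimap6, Cntn4, Myo5b, Hdhd2, Pstpip2, Txnl4a, Noc2l, Cth, Erich5 and 5 gene models. Smo was lost only without knockout replicate 4 (adjusted p = 0.0574), and Noc2l only without knockout replicate 4 or 5 (up to 0.059). No gene changed direction.

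The calls lay close together on a few chromosomes. Chromosomes 5, 6, 17 and 18 held 34 of the 47 calls (72.3%) and 18.99% of the genes tested. Within 20 Mb of Fkbp5 were 7 of 529 tested genes (1.32%), all of them within 5 Mb, and 0 of the 249 tested genes of chromosome 17 farther away were called. Runs of at least 3 called genes with neighbours at most 10 Mb apart took in 25 of the 47 genes, in 5 groups. These windows are drawn around the calls themselves, so the shares in them are descriptions.

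**Figure D2:**
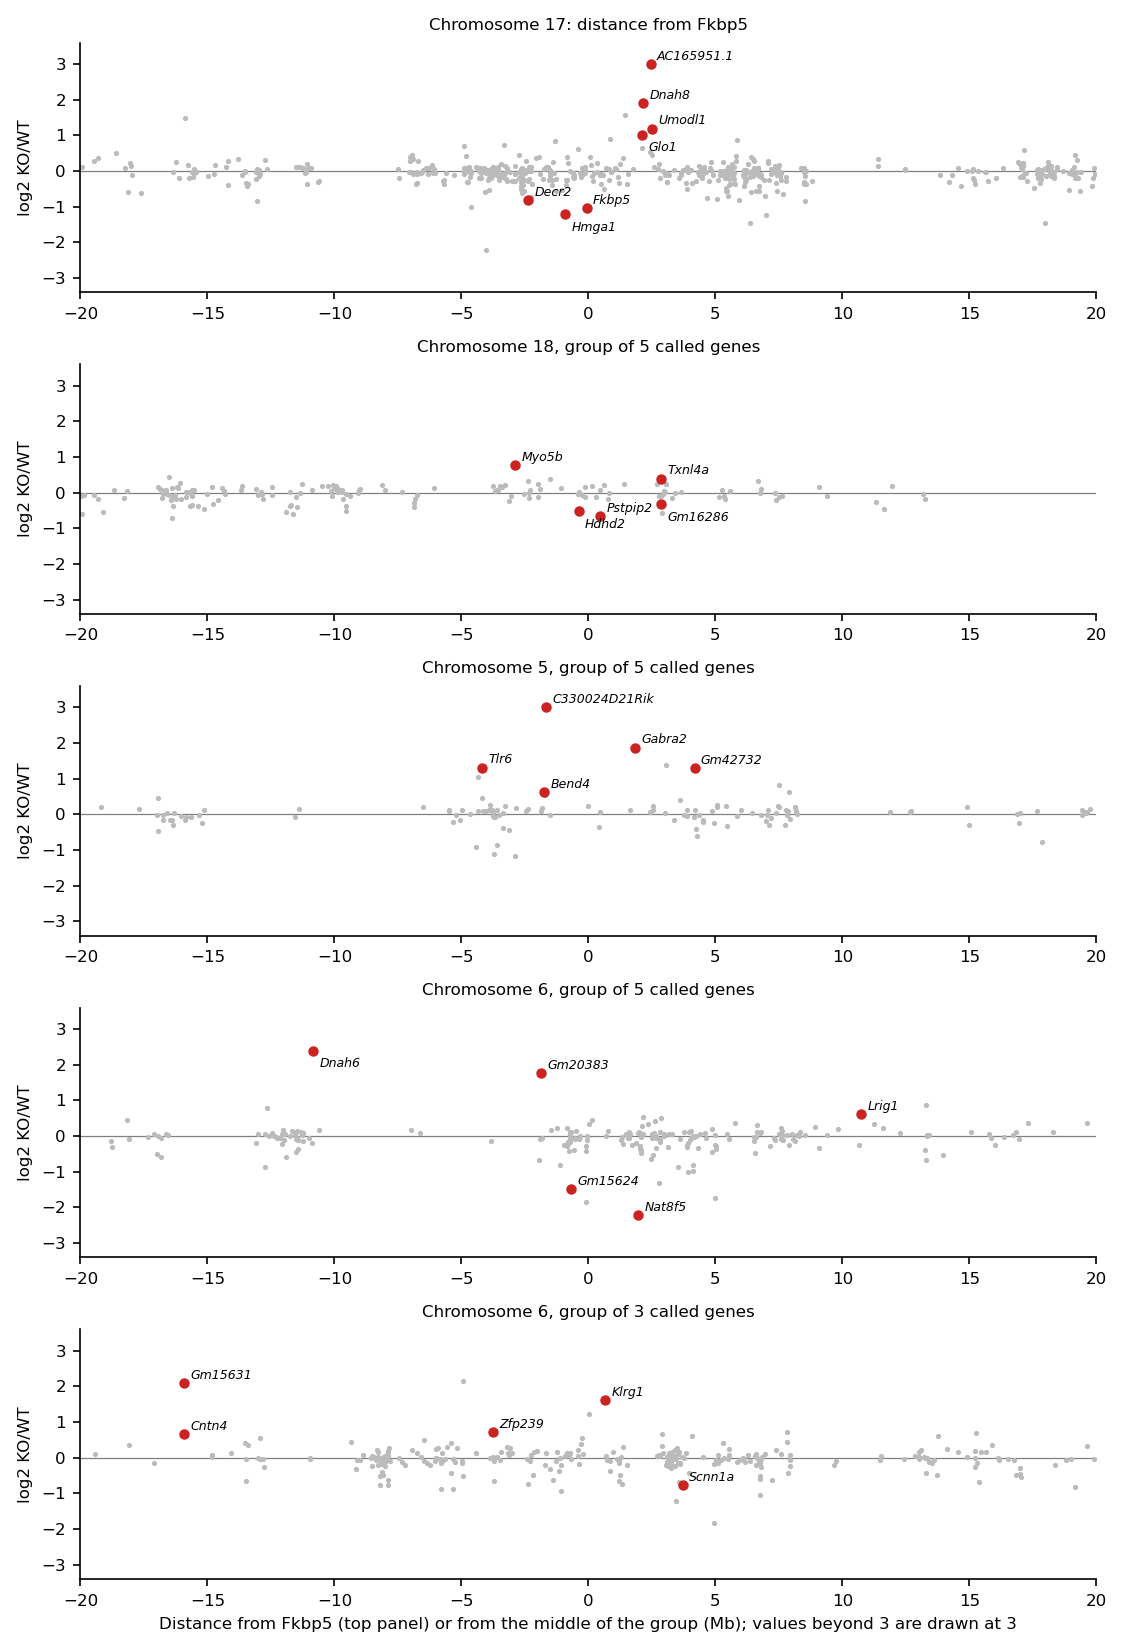
log2 difference of knockout over wild-type after saline for the tested genes within 20 Mb of Fkbp5 (top) and of the middle of the 4 other groups, by distance in Mb. Red points are called genes and grey points the other genes tested; the 7 called genes of chromosome 17 sit within 3 Mb of Fkbp5, 4 above 0 and 3 below.

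The group around Fkbp5 ran from 26081208 to 31010710 on chromosome 17 and held 7 called genes of 84 tested (8.33%). Glo1 (ENSMUSG00000024026, chromosome 17, 30584936 to 30626871), the glyoxalase that clears methylglyoxal, stood at 79.7, 88.5, 113, 120 and 127 CPM in wild-type replicates 1 to 5 and at 173, 186, 227, 235 and 238 in the knockout. Each knockout library was above every wild-type library. The log2 difference was 1.01 ± 0.07 (edgeR adjusted p = 3.23e-09). No other of the 9 tested glyoxalase and methylglyoxal genes was called over all 5 replicates. In replicates 3 to 5 alone Akr1a1, named after its values were seen, was called lower (log2 difference -0.25), with 0.15 in replicates 1 and 2.

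Dnah8, a heavy chain of axonemal dynein that overlaps Glo1 in the annotation, rose from 0.506 ± 0.269 to 1.89 ± 0.495 CPM (SD, n = 5; log2 difference 1.90 ± 0.34, edgeR adjusted p = 0.00999). Umodl1 rose from 1.03 ± 0.442 to 2.27 ± 0.227 CPM (1.19 ± 0.24, adjusted p = 0.0283). The smallest p of the whole comparison belonged to AC165951.1, an antisense transcript that overlaps Umodl1 and Glp1r and is named after its values were seen. It had 7 counts over the 5 wild-type libraries and 3260 over the 5 knockout libraries, or 0 to 0.178 CPM against 25.6 to 36.2. How strand was set in counting is not given in the sources used here. Reads from the stretches that AC165951.1 shares with these genes may thus not have been told apart by strand. The share of such reads was not tested.

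On the other side of Fkbp5, Decr2 fell. This peroxisomal dienoyl-CoA reductase stood at 38.1, 27.4, 37.7, 35.3 and 32.3 CPM in wild-type and at 17.3, 20.02, 20.5, 20.5 and 19.1 in the knockout, without overlap (log2 difference -0.81 ± 0.09, edgeR adjusted p = 2.6e-05). Hmga1 (ENSMUSG00000046711, chromosome 17, 27556497 to 27563674), an architectural chromatin protein, stood at 35.9 to 42.0 CPM in wild-type and at 14.0 to 20.9 in the knockout (-1.22 ± 0.10, adjusted p = 1.18e-07). Its close copy on another chromosome went the other way, as described next.

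In 7 pairs a called gene is a near-identical copy of a parent gene on another chromosome, with at least 95% identity over at least 300 bases. The called genes Hbq1a and Smo also have such a match, to the neighbouring Hbq1b (99.0% over 312 bases) and to the pseudogene Gm4066 (97.9% over 339 bases), and are not among these pairs. Hmga1b, on chromosome 11 (120762794 to 120764419), matches Hmga1 at 99.8% over 1602 bases with 3 mismatches. It had 6 counts in the wild-type libraries and 1926 in the knockout libraries (0 to 0.138 CPM against 16.6 to 19.0). Hmga1b took 0.167% ± 0.174 (SD, n = 5) of the CPM of the pair in wild-type and 51.7% ± 4.75 in knockout. The sum of both genes was 39.96 ± 2.48 CPM in wild-type and 35.5 ± 2.73 in knockout (exact permutation test, two-sided, p = 0.0397, 0.139 after Benjamini-Hochberg adjustment over 7 pairs; the smallest possible p is 0.00794). The large rise of Hmga1b and the fall of Hmga1 thus left their sum lower by 0.17 on the log2 scale. A single pair at the smallest possible p would reach only 0.0556 after adjustment. The adjusted test therefore cannot decide whether this sum changed.

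The remaining 6 copies are processed pseudogenes. Gm13443, on chromosome 2 (35340409 to 35340963), is the copy of Glo1. Gm13443 stood at 0.137 to 0.32 CPM in wild-type and at 9.74 to 17.7 in the knockout (log2 difference 5.89 ± 0.31, edgeR adjusted p = 4.47e-11). Its share of the pair was 0.200% ± 0.0608 (SD, n = 5) and 5.65% ± 0.734. Here the sum rose, since Glo1 rose as well. The pair summed to 79.8 to 127 CPM in wild-type and to 183 to 256 in knockout, without overlap (exact permutation test, two-sided, p = 0.00794, the smallest possible, and 0.0556 adjusted over the 7 pairs).

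In 3 pairs a single substitution separates copy and parent, and these are shown because the rest of each copy is identical to its parent. A substitution gives the parent's base, the position from the first base of the copy, and the copy's base. Gm13394 on chromosome 2 (28933610 to 28934609) differs from Gapdh, the glycolytic enzyme gene on chromosome 6, by A346C over 1000 bases. Gm12191 on chromosome 11 (49678710 to 49679057) differs from the ribosomal protein gene Rpl30 on chromosome 15 by G96A over 348 bases. Gm15387 on chromosome 15 (74093686 to 74094333) differs from Hmgb1, a chromatin protein gene on chromosome 5, by A21G over 648 bases. The 31 bases around each difference follow from the GENCODE M21 transcripts of GRCm38, 5′ to 3′ on each gene's own strand, with the differing base in capitals.
Gapdh: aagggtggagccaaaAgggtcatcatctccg
Gm13394: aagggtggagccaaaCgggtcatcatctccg
Rpl30: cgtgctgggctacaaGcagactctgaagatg
Gm12191: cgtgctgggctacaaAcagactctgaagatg
Hmgb1: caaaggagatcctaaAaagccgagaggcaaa
Gm15387: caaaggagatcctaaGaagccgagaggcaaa

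The copies took a small share of each pair. Gapdh and Hmgb1 have many further copies in the genome, which the pair leaves out. Gm13394 had 0.0228% ± 0.0082 (SD, n = 5) of the Gapdh pair in wild-type and 0.218% ± 0.106 in knockout, and Gm12191 had 1.21% ± 0.315 and 3.46% ± 0.837 of the Rpl30 pair. Gm15387 had 0.0414% ± 0.0334 and 1.39% ± 0.82 of the Hmgb1 pair. A second Hmgb1 copy, Gm5527 on chromosome 1 (98.4% identity over 641 bases), had 0.0841% ± 0.0653 and 1.41% ± 0.757.

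Gm12751 on chromosome 4 is identical to the RNA polymerase subunit gene Polr1d (chromosome 5) over 381 bases. It had no count in wild-type and 257 counts in knockout, at least 77.5-fold higher against 3 counts over the group, and took 5.32% ± 1.92 of its pair in the knockout. None of the parents Gapdh, Rpl30, Hmgb1 and Polr1d was called over all 5 replicates. Hmgb1 was called lower in replicates 3 to 5 alone (log2 difference -0.25, edgeR adjusted p = 0.0337). The sums of these 5 pairs overlapped between genotypes over all 5 replicates, and no difference passed the test (exact permutation p = 0.349 to 1). That test leaves out the library set. Within replicates 3 to 5 the Rpl30 pair summed to 233 to 275 CPM in wild-type and 183 to 204 in knockout. The Hmgb1 pair with Gm15387 had 187 to 191 and 156 to 166 there, and the Gapdh pair 1916 to 1951 and 1826 to 1904. In replicates 1 and 2 the Rpl30 and Hmgb1 pairs overlapped, and the Gapdh pair had 877 and 1081 against 1289 and 1366. The Polr1d pair overlapped in both sets.

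The parents of the copies lay at unequal distances from other called genes. Glo1 and Hmga1 are in the group around Fkbp5, Gapdh lies 0.16 Mb from the called gene Scnn1a, and Rpl30 lies 0.01 Mb from the called gene Erich5. Polr1d and Hmgb1 lie 8.99 and 10.96 Mb from the called gene Zkscan1. Of all genes tested, 5.8% lay within 2 Mb of a called gene that is not one of the copies and 12.5% within 10 Mb. How the reads that match several places were assigned is not given in the sources used here, and its part in these shares was not tested.

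**Figure D3:**
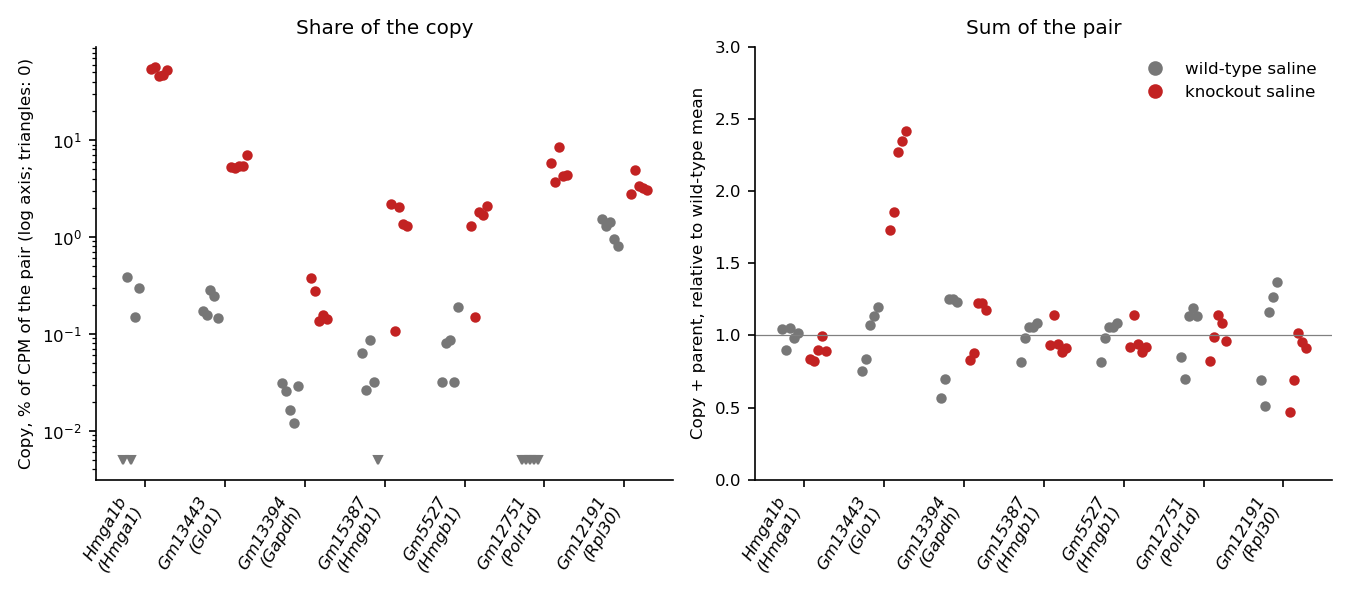
For 7 called copies and their parents (in brackets), the share of the copy in the CPM of the pair (left, log axis, triangles for 0) and the sum of the pair relative to its wild-type mean (right), in each saline library. The copy's share is higher in the knockout for all pairs, except that 1 knockout library overlaps wild-type for Gm5527. Over all 5 replicates the sum is clear of wild-type only for Glo1 with Gm13443.

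Gabra2 (ENSMUSG00000000560, chromosome 5, 70957597 to 71095849) encodes the alpha 2 subunit of the GABA-A receptor, the chloride channel of fast inhibition. It stood at 100, 90.9, 58.2, 56.4 and 57.6 CPM in wild-type replicates 1 to 5 and at 305, 283, 255, 228 and 240 in the knockout. Every knockout library was far above the highest wild-type library. The log2 difference was 1.87 ± 0.15 (edgeR adjusted p = 1.18e-07), a 3.66-fold rise.

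No other GABA-A subunit was called over all 5 replicates. Of 14 tested subunits, 8 lay above 0 and 6 below. The neighbours of Gabra2 on chromosome 5 overlapped between genotypes over all 5 replicates. Gabrg1 stood at 29.3 ± 10.4 CPM in wild-type and 30.4 ± 5.55 in knockout, Gabra4 at 121 ± 22.5 and 125 ± 20.9 and Gabrb1 at 147 ± 36.8 and 174 ± 18.5 (SD, n = 5). In replicates 3 to 5 alone Gabrb1 was called higher (log2 difference 0.31, edgeR adjusted p = 0.0396), at 131 to 147 CPM against 162 to 179. In replicates 1 and 2 it was at 116 and 210 CPM in wild-type and 203 and 157 in knockout. Gabrb2, a principal synaptic subunit, had a log2 difference of 0.21 ± 0.30. Gabra5 and Gabra3 stood at 0.00 ± 0.11 and -0.01 ± 0.19, Gabrg3 at 0.07 ± 0.16, and Gabrd, the extrasynaptic delta subunit, at -0.26 ± 0.14. Gabrq and Gabrr2 were under 1 CPM on average in both genotypes.

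Around Gabra2, the group on chromosome 5 from 64952031 to 73312560 held 5 called genes of 45 tested (11.1%), all higher in the knockout. Bend4, a BEN-domain gene, rose from 8.84 ± 1.35 to 13.5 ± 1.69 CPM (SD, n = 5; edgeR adjusted p = 8.06e-04). Tlr6, the Toll-like receptor that pairs with TLR2, rose from 0.615 ± 0.223 to 1.56 ± 0.522 CPM (adjusted p = 0.0316). The other members are a noncoding transcript and a clone-based gene model.

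Farther along chromosome 5, Zkscan1 and Glt1d1 were among the called genes. Zkscan1, a zinc finger gene, rose from 35.8 ± 4.01 to 52.4 ± 2.63 CPM (SD, n = 5; edgeR adjusted p = 0.00132), without overlap. Glt1d1 fell from 21.3 ± 6.49 to 12.5 ± 3.8 CPM (adjusted p = 0.0397); its knockout replicate 1, at 19.2, lay inside the wild-type range.

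Chromosome 6 held the most calls, 14 of 824 genes tested (1.7%), 10 higher and 4 lower. Gpnmb (ENSMUSG00000029816, chromosome 6, 49036546 to 49070929), a transmembrane glycoprotein of phagocytes, stood at 4.48, 6.5, 6.78, 7.87 and 7.4 CPM in wild-type and at 1.3, 1.45, 2.31, 1.6 and 2.21 in the knockout. The knockout kept 26.9% of the wild-type level, without overlap (log2 difference -1.90 ± 0.18, edgeR adjusted p = 1.17e-06). It was the only called gene among 19 tested markers of disease-associated microglia and myeloid cells, whose median difference was -0.06.

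Between 73017606 and 94700158 lay 5 called genes of 148 tested (3.38%). Dnah6, another axonemal dynein heavy chain, rose from 0.989 ± 0.647 to 5.13 ± 1.41 CPM (SD, n = 5; log2 difference 2.39 ± 0.30, edgeR adjusted p = 9.98e-05). Lrig1, a brake on growth factor receptors, rose from 22.1 ± 2.3 to 34.1 ± 2.22 CPM (adjusted p = 0.0208). Nat8f5, of the N-acetyltransferase 8 family, fell from 1.05 ± 0.317 to 0.229 ± 0.138 CPM (adjusted p = 0.0217).

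From 117862100 to 125344943 there were 3 of 95 (3.16%). Zfp239, a zinc finger gene, stood at 30.3 to 34.3 CPM in wild-type and at 48.4 to 60.1 in the knockout (log2 difference 0.72 ± 0.08, edgeR adjusted p = 2.03e-05). Klrg1, a receptor of lymphocytes, rose from 0.326 ± 0.0386 to 1.04 ± 0.397 CPM (SD, n = 5; adjusted p = 0.0235). Scnn1a, the alpha subunit of the epithelial sodium channel, fell from 12.2 ± 2.2 to 7.13 ± 0.983 CPM (adjusted p = 0.00737), without overlap.

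The other called coding genes of chromosome 6 were Smo, Gimap6 and Cntn4. Smo, the Hedgehog signal transducer, rose from 28.2 ± 7.52 to 41.6 ± 9.64 CPM (SD, n = 5; edgeR adjusted p = 0.0144). Its groups overlapped across the library sets but not within them, at 18.8 to 21.2 against 30.7 to 32.1 CPM in replicates 1 and 2 and at 32.6 to 34.1 against 45.0 to 51.5 in replicates 3 to 5. Gimap6 and Cntn4 are named after their values were seen. Gimap6, an immune GTPase, rose from 2.38 ± 0.975 to 5.06 ± 1.43 CPM (adjusted p = 0.0389). Cntn4, a neuronal adhesion molecule, rose from 11.2 ± 1.28 to 17.9 ± 1.64 CPM (adjusted p = 0.0389).

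On chromosome 18, between 74440936 and 80225855, 5 of 31 genes tested were called (16.1%). Myo5b, a motor of recycling endosomes, rose from 82.6 ± 21.0 to 142 ± 32.3 CPM (SD, n = 5; log2 difference 0.78 ± 0.15, edgeR adjusted p = 0.0202). Hdhd2 fell from 17.5 ± 2.0 to 12.3 ± 1.5 CPM (adjusted p = 0.0144), and Pstpip2, an adaptor of myeloid cells, from 7.41 ± 1.81 to 4.77 ± 1.67 (adjusted p = 0.0362). Txnl4a, a spliceosome component, rose from 18.5 ± 3.32 to 24.2 ± 2.16 CPM (adjusted p = 0.0312), and the gene model Gm16286 that overlaps it fell by 0.32 on the log2 scale (adjusted p = 0.0331). Reads of these overlapping genes cannot be told apart by strand.

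Beyond these chromosomes the called coding genes were Hmga1b, Noc2l, Cth, Erich5, Hbq1a and a clone-based model on an unplaced scaffold. Noc2l, a nucleolar factor on chromosome 4, fell from 55.5 ± 4.83 to 39.8 ± 10.2 CPM (SD, n = 5; log2 difference -0.50 ± 0.09, edgeR adjusted p = 0.0128), with -0.27 in the first library set and -0.67 in the second. Cth, the cystathionine gamma-lyase of cysteine synthesis, fell from 3.19 ± 0.678 to 1.68 ± 0.158 CPM (adjusted p = 0.0364). Erich5 rose from 0.689 ± 0.436 to 2.65 ± 0.434 CPM (adjusted p = 0.022) and Hbq1a, a theta globin gene with a near-identical neighbour, from 0.332 ± 0.149 to 2.1 ± 0.68 (adjusted p = 1.35e-04).

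The genotype difference was read a second time in the 10 LPS libraries. Their levels do not enter the saline group means, but both contrasts come from 1 fit and share its dispersions and library set term. Leaving out single LPS libraries gave 43 to 59 saline calls. After LPS 54 genes were called (0.329%), and 35 of the 47 saline calls were among them in the same direction, 74.5% of the saline calls and 64.8% of the LPS calls. All 47 had the same sign in both. Gabra2 stood at 56.5 ± 6.26 CPM in wild-type LPS and 219 ± 55.2 in knockout LPS, Gpnmb at 5.9 ± 0.832 and 1.93 ± 0.678, and Decr2 at 30.3 ± 3.82 and 21.6 ± 1.39 (SD, n = 5). In 31 of the 47 the genotypes did not overlap after LPS (0.828% of all genes tested). In 25 they were apart after both injections, beside 29 of all 16419 genes tested that were apart in the same direction.

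The 12 saline calls that did not pass after LPS included Lrig1, Erich5, Klrg1, Umodl1, Tlr6, Cth, Gimap6, Cntn4, Glt1d1, Gm13856 and Gm16286. A test of the difference between the contrasts called 0 genes (edgeR interaction, smallest adjusted p = 0.989), and so did DESeq2 and limma-voom. The unadjusted interaction p was under 0.05 in 472 genes. Among the 47 saline calls, 3 had an unadjusted interaction p under 0.05. They include Decr2, with log2 differences of -0.81 after saline and -0.48 after LPS (edgeR interaction, adjusted p = 0.989).

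**Figure D4:**
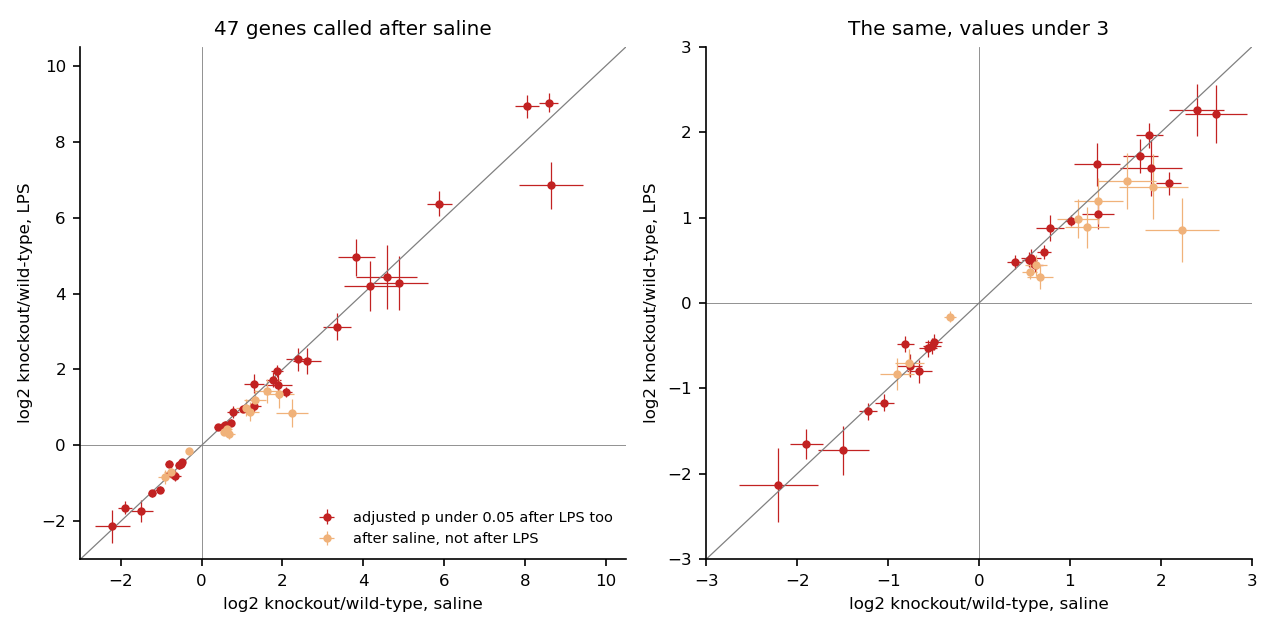
log2 difference of knockout over wild-type after saline (x axis) and after LPS (y axis) for the 47 genes called after saline, with SE bars and the line of equality, at full range (left) and under 3 (right). All 47 points lie in the quadrants of equal sign; the 35 genes in red were called after LPS too.

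The pair of library sets gave unequal counts. Replicates 3 to 5 alone called 500 of 15523 genes (3.22%), 330 higher (2.13%) and 170 lower (1.1%), 44 of the 47 genes among them. Replicates 1 and 2 alone, with 2 libraries per group, called 3 (0.0169%). The median absolute log2 difference of the 500 was 0.38. In the LPS libraries of replicates 3 to 5, 479 of the 500 (95.8%) had the same sign. Of the 500, 85 were called there, beside 0.76% of all genes tested. In saline replicates 1 and 2 the same sign was found in 287 of 499 (57.5%). The share of all genes with equal sign was not counted, so these percentages of equal sign are descriptions. A test of the genotype difference between the sets called 0 genes in edgeR (1473 at an unadjusted p under 0.05) and 0 in limma-voom, and 6 in DESeq2.

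In the same saline libraries the mitochondrial share also differed by genotype, as given above, and its part in the count was not tested. Transcript length moved with these 500 genes. The longest annotated transcript had a median of 6772 bases in those higher and 2159 in those lower, against 3331 over the genes tested. Across genes, Spearman's rho between length and the log2 difference was 0.375 in saline replicates 3 to 5, 0.21 in LPS replicates 3 to 5 and 0.0106 in saline replicates 1 and 2. Over all 5 saline replicates it was 0.245. Genes are not independent replicates, and the part of length in the count was not tested. The 47 genes had median lengths of 2764 bases for those higher and 2813 for those lower, beside 3241 over all genes of that fit.

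Cholesterol synthesis was the list with the most calls in replicates 3 to 5 alone; its genes and the early genes here are named after their values were seen. Of 18 tested genes 17 lay below 0 there, where the median over all genes was -0.01. Of the 18, 7 were called lower in the knockout, beside 1.1% of all genes tested there. Among the 7 were Insig1, Msmo1, Mvd, Sqle, Fdft1 and Idi1, with log2 differences of -0.28 (Sqle) to -0.57 (Insig1). In replicates 1 and 2 the list had a median of 0.14, and in LPS replicates 3 to 5 of -0.07, against -0.21 in saline replicates 3 to 5. Over all 5 replicates edgeR called 0 of the 18 (1 at an unadjusted p under 0.05). Insig1, which retains the sterol sensor in the endoplasmic reticulum, stood at 81.7 ± 26.5 CPM in wild-type and 62.7 ± 8.96 in knockout (SD, n = 5; edgeR adjusted p = 0.505). Egr1 and Egr2, immediate early genes, were lower in replicates 3 to 5 alone (-0.55 and -1.47) and had 0.51 and 1.57 in replicates 1 and 2.

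Of 512 tested genes on 38 lists of cell types and pathways 7 were called, beside 47 of 16419 (0.286%) over all genes. The lists were drawn up with earlier results known, so the share is a description. The 7 were Fkbp5, Gabra2, Glo1, Hmga1, Hmga1b, Gpnmb and Scnn1a. In 1 list, the high mobility group genes, the mean level of the members separated the genotypes; it holds Hmga1b and Hmga1, whose shares are described above. No list of hippocampal neurons, interneurons, astrocytes, microglia, interferon, complement or cytokine genes had a called member apart from Fkbp5 and Gpnmb. That holds over all 5 replicates. In replicates 3 to 5 alone 2.13% of all genes tested were called higher and 1.1% lower. There 1 of 14 homeostatic astrocyte genes was called higher and 2 lower. Of 12 granule cell genes 2 were called higher and 1 lower, and of 14 homeostatic microglia genes 1 was called lower. Fkbp5 is also on the reactive astrocyte list. Scnn1a is on the list of neocortex markers, as the only called gene of 9 tested. Gfap stood at 408 ± 47.4 CPM in wild-type and 474 ± 78.1 in knockout and Aif1 at 4.61 ± 0.966 and 4.13 ± 0.914, with overlap in both (SD, n = 5; edgeR adjusted p = 0.685 and 0.894).

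The lists farthest above 0 were those of the brain's borders. Meningeal fibroblast genes had 13 of 14 above 0 and a median of 0.52, border macrophages 7 of 8 and 0.60, and choroid plexus 10 of 12 and 0.37, with 0 called in each over all 5 replicates. In replicates 3 to 5 alone 2 of 14 meningeal and 1 of 12 choroid plexus genes were called higher, beside 2.13% of all genes tested there. Ogn, a small proteoglycan of fibroblasts, stood at 4.39 to 6.85 CPM in wild-type and at 5.37 to 12.9 in the knockout (edgeR adjusted p = 0.271). In replicates 3 to 5 alone Ogn was called higher (log2 difference 1.03, edgeR adjusted p = 0.013), with 0.25 in LPS replicates 3 to 5. The summed meningeal level was 64.2 to 126 CPM in wild-type and 78.2 to 199 in knockout, with the highest sums in knockout replicates 4 and 5 (199 and 156). Without both libraries the median was 0.28, that of border macrophages 0.22 and that of choroid plexus 0.33. After LPS the meningeal median was -0.46. In bulk tissue, more cells of a type and more RNA per cell cannot be told apart.

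Myelin genes leaned the other way, with 14 of 15 below 0, a median of -0.18 and 0 called over all 5 replicates. Opalin, a late marker of oligodendrocytes, stood at 20.2 ± 3.05 CPM in wild-type and 12.9 ± 3.46 in knockout (SD, n = 5; edgeR adjusted p = 0.272), and Mog, a protein of the outer myelin sheath, at 47.5 ± 4.19 and 37.0 ± 6.48 (adjusted p = 0.55). In replicates 3 to 5 alone Opalin, as 1 of the 15, was called lower, beside 1.1% of all genes tested there. Its log2 difference there was -0.69 (edgeR adjusted p = 0.0499). Homeostatic microglia had 13 of 14 genes below 0 (median -0.15), class I antigen presentation 13 of 15 (-0.21) and mitochondrially encoded genes 13 of 13 (-0.16). In the last, mt-Co3 had 367 and 343 CPM in wild-type replicates 4 and 5 and 20.6 to 46.3 in the other 8 saline libraries. Over all genes tested 47.3% lay above 0.

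**Figure D5:**
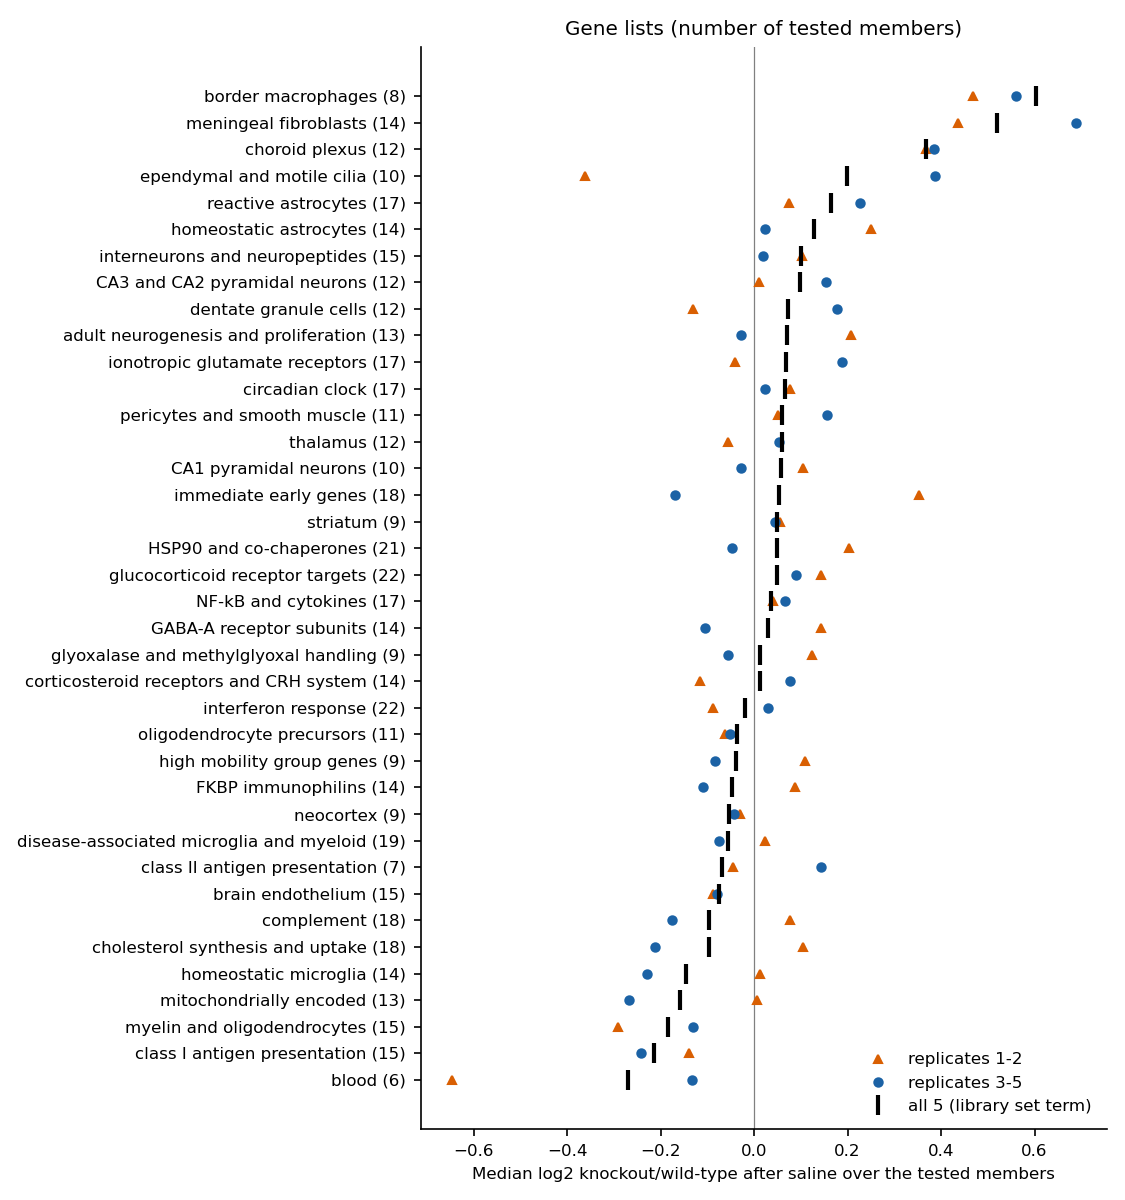
Median log2 difference of knockout over wild-type after saline for 38 gene lists, over all 5 replicates and within each library set, with the number of tested members in brackets. The meningeal and border macrophage lists lie above 0.4 in both sets, while the cholesterol, microglia and immediate early gene lists change sign between the sets.

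Over all 5 replicates a granule cell gene came close to the threshold. C1ql2, a synaptic organizer of mossy fibres, stood at 149, 130, 242, 227 and 238 CPM in wild-type and at 56.1, 126, 107, 96.3 and 110 in the knockout. The groups did not overlap, and the log2 difference was -0.96 ± 0.21 (edgeR adjusted p = 0.0585). After LPS it was -0.97 (adjusted p = 0.0481). In saline replicates 3 to 5 alone C1ql2 was called lower (log2 difference -1.17, edgeR adjusted p = 0.0493), with -0.58 in replicates 1 and 2. No overlap after either injection and no saline call over all 5 replicates was found for 4 genes in all, C1ql2, Znrf3, Anxa4 and Gm13736. These are named after their values were seen.

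Some genes differed among the knockout libraries themselves, again as a description of genes singled out by their values. Knockout replicate 2 stood with the wild-type for Mcm6, a subunit of the replicative helicase, at 17.98 CPM against 4.78 to 7.74 in the other 4 knockout libraries and 12.7 to 24.2 in wild-type. Lgr6, a receptor for R-spondins, was at 3.83 CPM in that library, at 11.5 to 26.9 in the other 4 and at 2.37 to 3.70 in wild-type. The Hmgb1 copies Gm5527 and Gm15387 were at 0.298 and 0.213 CPM in that library and at 2.1 to 3.58 in the other 4.

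Other genes followed the library sets among the knockout saline libraries. Amd2, a polyamine synthesis gene, had 1.01 and 0.383 CPM in knockout replicates 1 and 2 and 7.21, 15.3 and 7.85 in replicates 3 to 5, with 0.594 to 1.87 in wild-type. Among the knockout LPS libraries it was low in replicate 1 (0.58) and at 5.45 to 13.9 in the other 4. Rbm43 had 12.96 and 11.2 CPM in the first 2 knockout libraries and 18.03 to 27.04 in the others, against 10.1 to 12.0 in wild-type. None of these genes was called over the 5 replicates, apart from the Hmgb1 copies.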

How the data were processed

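RNA from hippocampus was sequenced in 20 libraries. The authors deposited raw counts per gene for 55536 Ensembl genes; per the submitters' processing notes reads were trimmed with Trimmomatic 0.38, inspected with FastQC and MultiQC and counted with featureCounts 1.6.0 on mm10. RNA was extracted with an RNeasy kit and libraries were made with NEBNext Ultra reagents, per the labels' protocols. Which aligner and annotation release were used, how strand was set and how multimapping reads were assigned are not given in the sources used here. All 55536 identifiers matched GENCODE M21 (GRCm38).

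The counts were fitted in edgeR 4.0.16 (R 4.3.3) with TMM factors, filterByExpr by group, a robust quasi-likelihood fit, 4 groups and an additive library set term, on all 20 libraries; tests used Benjamini-Hochberg adjustment over 16419 genes. A count of 0 over a group was read as up to 3 counts (0.0314 CPM in wild-type saline), which covers counting error only. Copies were found with blastn (same strand, at least 95% identity, 300 bases and 30% of the shorter transcript). The labels do not say what equal replicate numbers share.

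Alternatives used DESeq2 1.42.0, limma-voom (limma 3.58.1), sva 3.50.0, other filters and scaling, the replicate number as a block, the saline libraries alone, each library set alone, and libraries left out. The genes named are Fkbp5, the 15 called genes of smallest p in each direction (predicted genes only as copies), those within 20 Mb of Fkbp5 or in positional groups, called list members, the GABA-A subunits, up to 4 members of smallest p from lists whose median lay more than 0.1 from that of all genes, and a set of stress and glia genes; others are marked as named after their values were seen, and some genes that the rule selects are not reported here. The members, the lists and the library set term were chosen with earlier results of these data known.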

Additional observations from a re-analysis of the deposited data

Results flagged for a closer look

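In groups of 5 libraries, 12 of 159 groups of the 80 genes checked held a library whose gap to the nearest other exceeded 0.71 of the group's range; chance gives about 5% of groups. Wild-type replicate 1 was low for Hsp90ab1 (1062 CPM, others 1630 to 1780). Wild-type replicate 2 was high for Nr3c2 (226 CPM, others 160 to 171) and Myo5b (120, others 67.4 to 75.9). Hbq1a was at 0.592 CPM in wild-type replicate 4 and Gm13394 at 0.551 in wild-type replicate 5.

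Among the knockout libraries, replicate 1 was high for Dnah6 (7.6 CPM, others 4.22 to 4.94) and Glt1d1 (19.2, others 10.04 to 11.4) and low for Gabrd (18.4, others 26.4 to 29.6). Replicate 2 was high for Mcm6 (17.98 CPM, others 4.78 to 7.74) and Hmgb1 (201, others 154 to 163). Gm12751 was at 4.38 CPM in replicate 3 (others 1.66 to 2.17) and Gabra3 at 34.6 in replicate 5 (others 53.3 to 59.1). What set these libraries apart was not tested.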

How the results depend on the processing

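The 47 calls after saline became 88 with DESeq2 (LPS 115, repeated 58, genotype by set 6), 335 without a filter on low counts (150 higher and 185 lower; LPS 229, repeated 99, within 20 Mb 25, interaction 85, genotype by set 317) and 28 without the library set term (LPS 24, repeated 21). Replicates 3 to 5 alone gave 500 (LPS 118, repeated 85, within 20 Mb 21). Replicates 1 and 2 alone gave 3 (LPS 4, repeated 3, within 20 Mb 1), and Fkbp5 had -1.04 there with adjusted p = 0.958. Without knockout saline replicates 4 and 5 there were 27, and 22 of the 47 genes were lost, in a fit with fewer samples. The saline libraries alone gave 1 gene for genotype by set. The cause was not tested for the other changes. limma-voom called 63, the stricter filter 42, 1 surrogate variable 62, and 40 remained outside the 20 Mb around Fkbp5.

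Leaving out 1 library gave 32 to 59 saline calls (32 without wild-type saline replicate 5 or knockout saline replicate 4), 37 to 76 LPS calls, 28 to 41 repeated calls, 6 to 10 within 20 Mb, 0 interaction genes, 0 to 1 genotype by set genes (1 without knockout saline replicate 1) and -1.11 to -0.98 for Fkbp5. Under these 20 settings 26 of the 47 genes passed each time. Over all alternatives none of the 47 changed direction, and AC165951.1 and Hmga1b passed in each.

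With the replicate block in place of the library set 59 genes were called after saline and 2 of the 47 were lost. Same-numbered saline libraries correlated at 0.387 to 0.58 in their deviations from the group means, but at -0.265 to 0.098 once the mean of each library set was removed, and 2 of 10 correlated best with their own number, so the numbers shared the set and no further pairing was established.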
